A study of Homo sapiens with 3 samples.

Results

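Keratin genes were taken from a merged list of binding sites of estrogen-related receptor gamma (ERRγ, gene ESRRG) in BT-474 cells. BT-474 is a human breast carcinoma cell line, luminal in type, that carries extra copies of ERBB2. The members were all peaks named for a gene whose symbol starts with KRT and a digit, which left out the keratin-associated proteins (KRTAP) and KRTDAP. There were 26 such peaks of 15223. They were named for 16 of the 55 protein-coding keratin genes and for 1 pseudogene, KRT8P41, and the other 39 protein-coding keratins had no named peak.

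Binding was mapped by chromatin immunoprecipitation and sequencing (ChIP-seq). A custom ERRγ antibody was used for 2 libraries, and 1 library was of input DNA. All were from vehicle-treated cells in regular DMEM, 90 min after the medium was renewed, with no genetic change named. The deposited list was merged and gave no value per library, so there was no replicate spread, the depth per library is unknown here, no test across samples was possible, and intervals cover counting error only. A peak list measures no RNA, so the line's own keratin expression was not analysed here.

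Keratins are the intermediate filament proteins of epithelial cells. A type I and a type II keratin pair to form the filament, which is anchored at desmosomes and hemidesmosomes, and each epithelium is known by the pairs it makes. KRT8 and KRT18, with KRT7 and KRT19, are the pairs of simple and luminal epithelium, and KRT5 and KRT14 those of the basal layer and of basal-type breast tumours. In humans the type II genes and KRT18 lie in a cluster on chromosome 12 and the remaining type I genes in a cluster on chromosome 17, where the hair keratin genes sit beside the KRTAP genes. ERRγ is an orphan nuclear receptor that binds a half-site of the AAGGTCA type.

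By the start sites that the peak table uses, no keratin gene had an ERRγ peak centred at its promoter. A peak of KRT8 lay at another start site of that gene, which the table does not use. Of 55 keratins, 0 had a peak centred within 1 kb of the named transcription start site (TSS), which allows a share of up to 5.45% (a limit of 3 counts), against 4.16% of all 20037 protein-coding genes. The peak nearest to any keratin TSS, in KRT18, was centred at 1346 bp. Only centres were counted, and the edge of this peak, at 53343225, lay within 1 kb of the KRT18 start at 53342843. Within 10 kb, 10 keratins had a peak (18.2%, exact Clopper-Pearson 95% interval 9.08 to 30.9), against 11.5% of all protein-coding genes. At any distance the 16 keratins with a peak made up 29.1% (17.6 to 42.9), against 29.6% of all protein-coding genes. At each of these distances the keratin interval or limit included the share over all genes. The keratins sit side by side and are not independent of each other, so these intervals may be too narrow. Counting only peaks of the upper 50% by score, 6 keratins had one within 10 kb (10.9%), against 7.24% of all genes, and with the upper 10% it was 3 (5.45%), against 1.83%. The table names 1 gene per peak, the nearest TSS, and in a dense cluster the name may pass between neighbours. A gene counts here as having a peak only if a peak is named for it.

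**Figure D1:**
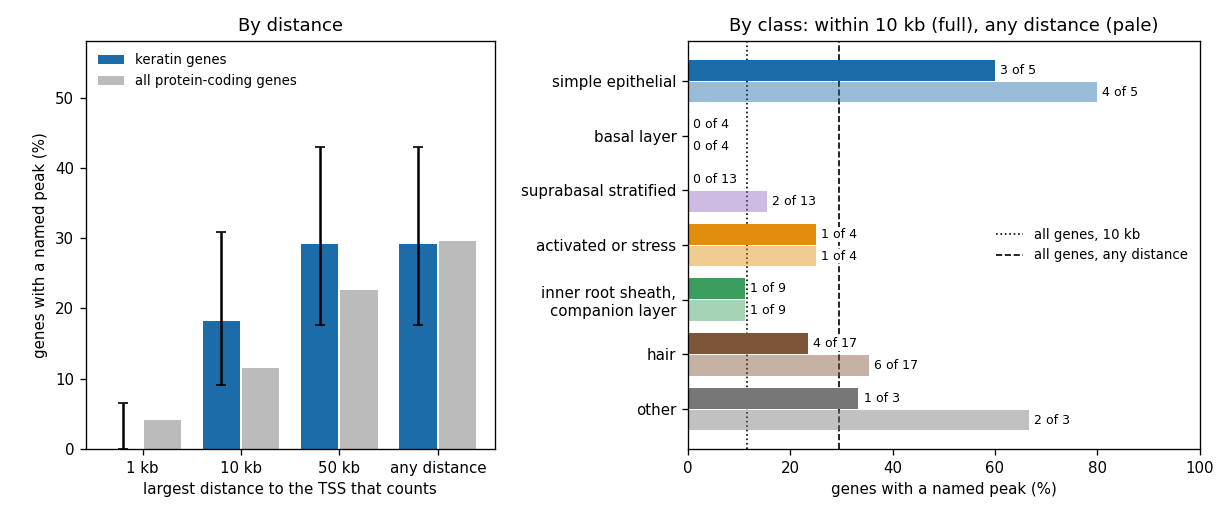
Left, the share of genes (in %) with a named ERRγ peak, for the 55 keratin genes (blue, with exact 95% intervals) and all protein-coding genes (grey), by the largest distance that counts. Right, the same share by keratin class within 10 kb and at any distance, with counts beside the bars and the shares over all genes as lines; the basal layer bars are at 0 of 4 and the simple epithelial ones at 3 of 5 and 4 of 5.

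The simple epithelial keratins were the class with the highest share of genes near a peak, and they held 10 of the 26 peaks. Within 10 kb, 3 of the 5 simple keratins had a peak, KRT7, KRT8 and KRT18 (60.0%, exact 95% interval 14.7 to 94.7), against 11.5% of all protein-coding genes. KRT8 and KRT18 are neighbours, and the class has few genes. KRT19 joined them when any distance counted (4 of 5), against 29.6% of all genes. KRT20, the simple keratin of the gut and of urothelium, had no named peak. Of the 4 basal layer keratins, KRT5, KRT14, KRT15 and KRT17, 0 had a peak named for them at any distance. Peaks named for their neighbours were not counted for them. With only 4 genes, the limit of 3 counts allows a share of up to 75%, and the exact 95% interval reaches 60.2%. The count of 0 thus does not set the basal class apart from the others. The classes were not tested against each other.

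Among the hair keratins, the hard keratins of the hair shaft, 4 of 17 had a peak within 10 kb (23.5%, 6.81 to 49.9), KRT33A, KRT35, KRT37 and KRT39, an interval that includes the 11.5% of all genes. With KRT83 and KRT85 it was 6 of 17 at any distance (35.3%), against 29.6% of all genes. The keratins of the inner root sheath and companion layer of the hair follicle had 1 of 9 within 10 kb, KRT71 (11.1%, 0.281 to 48.2). Those of activated or stressed epidermis had 1 of 4, KRT6B, with none for KRT6A, KRT6C and KRT16. None of the 13 suprabasal keratins of stratified epithelium had a peak within 10 kb, which allows up to 23.1%. Beyond that distance KRT9, the keratin of palms and soles, and KRT12, of the cornea, had 1 peak each. KRT222 and KRT80 of the remaining 3 genes had 1 each, while KRT23 had none.

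**Figure D2:**
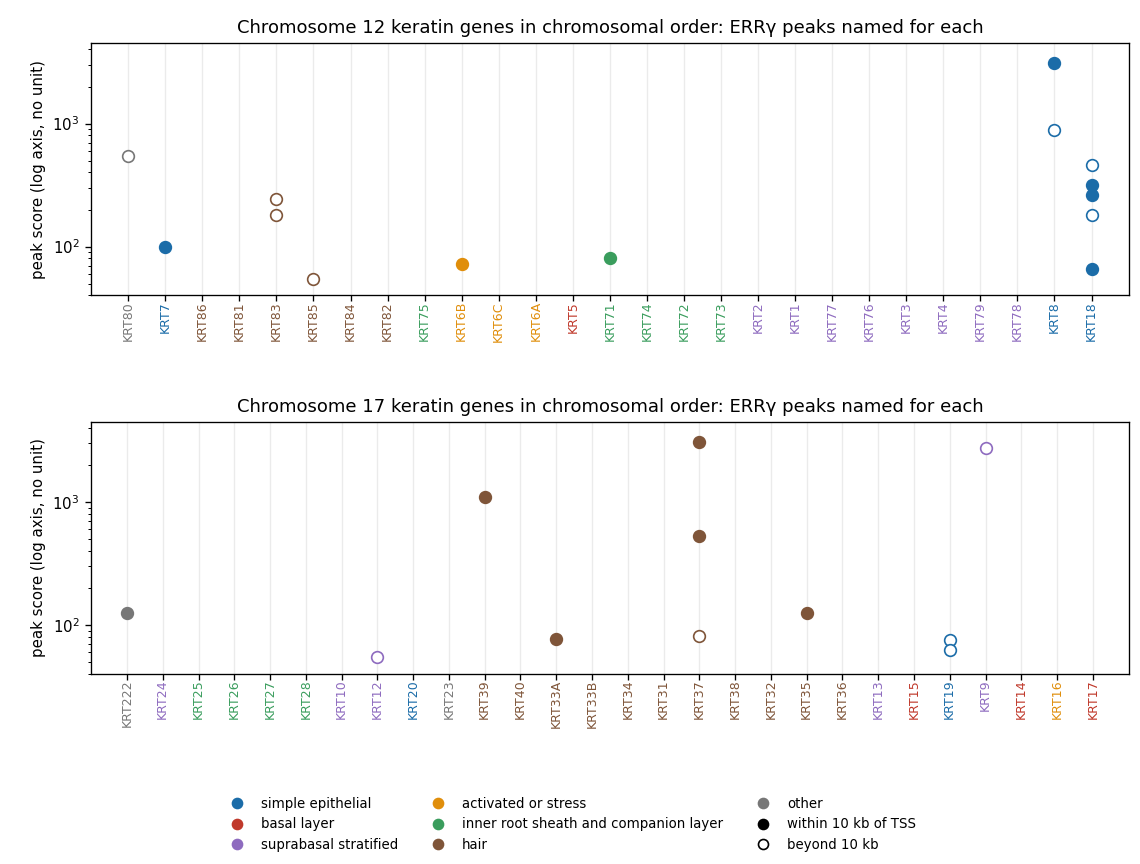
Scores of the ERRγ peaks named for each keratin gene (log axis), with the 27 genes of chromosome 12 above and the 28 of chromosome 17 below, in the order of the RefSeq table; filled points lie within 10 kb of the TSS and open ones beyond. Scores of 3100 stand at KRT8 and KRT37, and the basal layer genes (red) have no point.

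The pair KRT8 and KRT18 carried 7 of the 26 peaks, within 78.1 kb of chromosome 12. The genes are transcribed away from each other, and their TSSs lie 43.8 kb apart in the peak table. The strongest peak, at 53288486 to 53289939 (hg19), was intergenic, 9656 bp downstream of the KRT8 TSS, with the authors' score of 3100. In the whole list 158 peaks tied at exactly 3100 and only 17 exceeded it, so the leading ranks carry no order. The score, which is the authors', has no stated unit and serves here to order peaks inside this list.

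Between both TSSs lay a peak of 894, at 53318510 to 53321644, nearly midway, -21.2 kb from the KRT8 TSS and -22.6 kb from that of KRT18. RefSeq's promoter table places the KRT8 start elsewhere. By its spacing from the KRT71 start, the RefSeq start of KRT8 lay 21.4 kb upstream of the one in the peak table, 178 bp from the centre of this peak and inside it. For the 6 other keratins that could be compared in this way, both sources placed the start within 42 bp of each other. The spacing was taken to be the same in both genome builds, which was not tested. With that start, which was tried after the values were known, 1 of 55 keratins had a peak within 1 kb. Only the KRT8 start was changed, so this count is not comparable with the 4.16% of all genes, which rests on the peak table's starts. The upstream flank of KRT18 had a peak of 314 at -2562 bp. Inside KRT18, peaks annotated to exon 3 of 8 and exon 7 of 8 scored 65.2 and 262, the weaker one being the nearest to a TSS of all keratin peaks. Downstream of KRT18 2 further intergenic peaks scored 180 and 464, at 21.1 and 23 kb. The 2 exonic peaks were the only keratin peaks in exons (7.69%), against 0.795% of all peaks and 1.22% of all peaks within 50 kb of a TSS. The RefSeq table lists 152 keratin pseudogenes, most of them copies of KRT8 and KRT18, and how reads shared with such copies were treated is not given in the sources used here. Whether this bears on the exonic peaks was not tested.

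**Figure D3:**
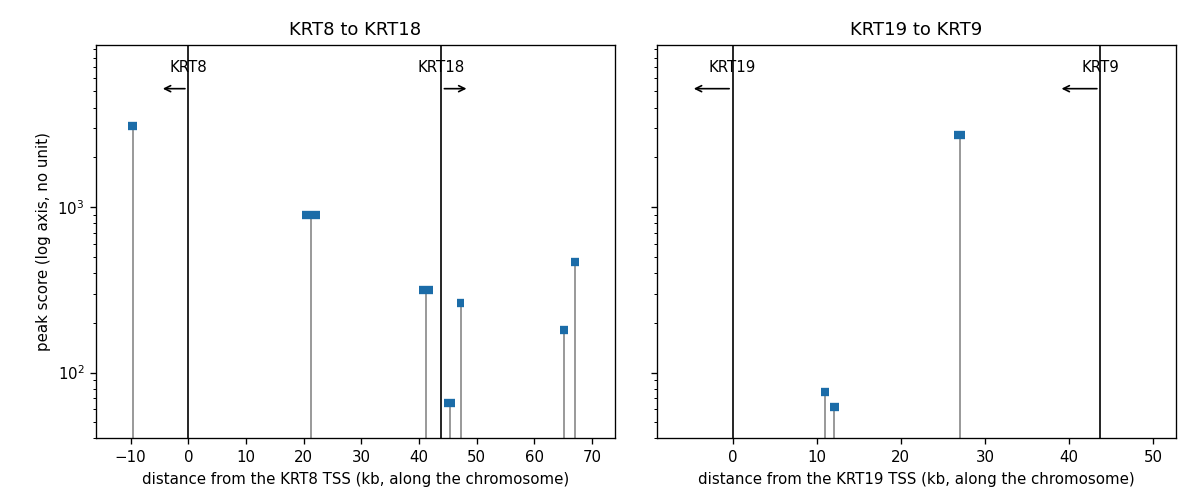
ERRγ peaks around the KRT8 and KRT18 pair (left) and between KRT19 and KRT9 (right), drawn at their width, with score (log axis) against distance in kb from the KRT8 or KRT19 TSS; vertical lines mark TSSs as the peak table has them and arrows the direction of transcription. Left, 7 peaks scored 65.2 to 3100; right, 3 peaks scored 62.2 to 2733.

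On chromosome 17, KRT19, the smallest keratin and a luminal marker, had 2 weak peaks upstream, scored 76.1 at -11.0 kb and 62.2 at -12.1 kb. The same interval of 43.7 kb between the KRT19 and KRT9 TSSs held a much higher score of 2733, at 39710954 to 39712321, in a MIRb element, which ranked 211 of 15223. The table names it for KRT9, 16.7 kb downstream of that TSS. It lay -27.0 kb from the KRT19 TSS, so the nearest-gene rule gives a strong peak to a skin keratin and leaves the luminal keratin next to it with weak ones. A peak list does not show which gene, if any, a peak acts on. KRT7, the type II partner of KRT19 in many simple epithelia, had 1 peak of 99.8 in intron 2 of 8 (52628949 to 52630417), 2729 bp from its TSS, below the median of all peaks.

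KRT37, a hair keratin also known from vellus hair, had 3 peaks downstream of its gene, on the side of KRT31 in the RefSeq order. The middle one, at 39571171 to 39572931 in a MIRb element, scored 3100 at 8771 bp, and those beside it scored 526 at 6885 bp, in an L2a element, and 81.5 at 11.1 kb. KRT39 had 1 peak of 1094 at the end of its gene (39112815 to 39115281, 9096 bp from the TSS). The remaining hair keratin peaks were weaker. KRT83 had 242 and 181 at -14.0 and -16.8 kb, KRT35 124 in intron 4 of 7, KRT33A 76.7 at 7378 bp and KRT85 54.4 at 22.6 kb. The hair genes thus held 9 peaks, whose median score of 181 stood beside 221 for the 10 simple epithelial peaks, with both classes spanning nearly the whole range of the list (54.4 to 3100 for hair, 62.2 to 3100 for simple). KRT33A and KRT33B, and KRT6A, KRT6B and KRT6C, are close copies of each other, so that reads may be split among them, which was not tested.

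The peaks of the other classes were few and mostly weak. KRT80, the outermost gene of the chromosome 12 cluster, had 549 at 42.9 kb downstream, outside the cluster. KRT222, a keratin-like gene, had 126 in intron 3 of 5, KRT71 80.9 at -8287 bp, KRT6B 72.7 at -2691 bp and KRT12 55.1 at 12.9 kb. The pseudogene KRT8P41 on chromosome 11 had 68.3 at 32.8 kb, in an L1 element. It was 1 of the 152 pseudogenes, but not all of these need have been in the annotation that named the peaks.

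**Figure D4:**
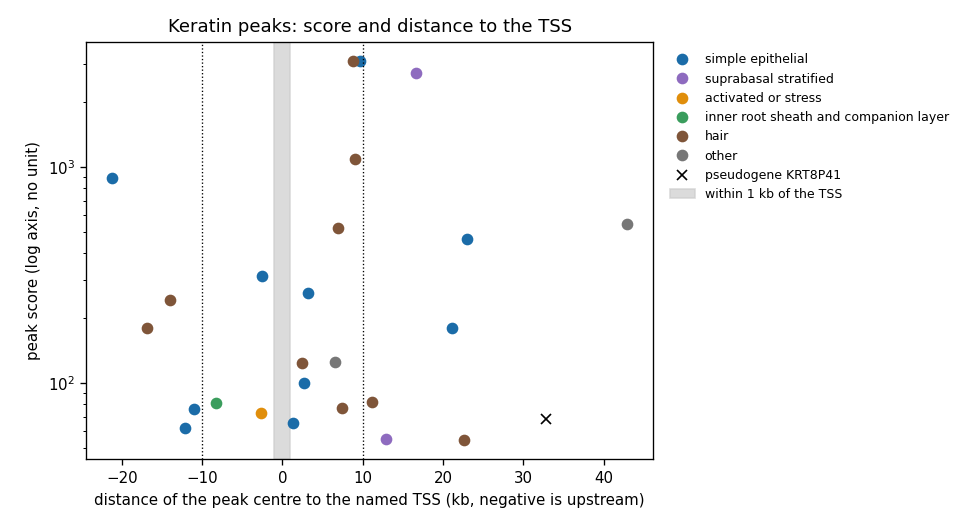
Score (log axis) of the 26 keratin peaks against the distance of the peak centre to the named TSS in kb (negative is upstream), coloured by class; the grey band is the 1 kb around the TSS and the dotted lines mark 10 kb. The band is empty, and the scores of 1094 and above lie 8.77 to 16.7 kb downstream of the named TSS.

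Promoter windows are printed for the genes with the 3 highest scores and for KRT5, a basal keratin without a named peak. The KRT8 window is that of the RefSeq start inside the peak of 894, and the windows of KRT37 and KRT9 had no peak within 1 kb. The lines give the 250 bases before the RefSeq TSS on the gene's own strand (GRCh38.p14, all on the reverse strand of the chromosome), 5′ to 3′, with capitals for the nuclear receptor half-site AGGTCA and the GC box GGGCGG on either strand.
KRT8: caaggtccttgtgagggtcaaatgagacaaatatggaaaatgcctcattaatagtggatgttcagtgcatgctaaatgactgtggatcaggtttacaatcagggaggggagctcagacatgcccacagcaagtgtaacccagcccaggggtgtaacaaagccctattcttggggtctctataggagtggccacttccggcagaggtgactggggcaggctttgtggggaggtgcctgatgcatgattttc
KRT37: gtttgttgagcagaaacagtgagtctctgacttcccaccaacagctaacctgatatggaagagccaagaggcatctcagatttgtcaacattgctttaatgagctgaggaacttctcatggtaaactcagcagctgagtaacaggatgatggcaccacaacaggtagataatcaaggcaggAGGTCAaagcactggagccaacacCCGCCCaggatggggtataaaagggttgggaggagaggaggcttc
KRT9: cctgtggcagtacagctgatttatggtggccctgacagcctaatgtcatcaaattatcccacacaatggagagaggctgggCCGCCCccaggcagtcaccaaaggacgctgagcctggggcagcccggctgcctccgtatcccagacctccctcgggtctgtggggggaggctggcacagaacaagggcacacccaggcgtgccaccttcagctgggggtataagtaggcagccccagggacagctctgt
KRT5: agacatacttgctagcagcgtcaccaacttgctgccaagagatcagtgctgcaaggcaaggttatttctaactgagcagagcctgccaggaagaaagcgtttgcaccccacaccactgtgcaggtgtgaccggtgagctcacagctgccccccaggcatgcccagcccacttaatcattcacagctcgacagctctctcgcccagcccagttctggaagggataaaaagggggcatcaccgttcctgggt

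RefSeq promoter windows of 300 bases, 50 of them after the TSS, were matched for 34 of the 55 keratins. Searched on both strands, the ERRγ half-site AAGGTCA was in 0 of the 34 keratin windows, against 3.13% of 15843 windows of protein-coding genes, and its longer form TNAAGGTCA likewise in 0, against 0.638%. The shorter half-site AGGTCA, which the first contains, was in 3 of 34 (8.82%), KRT24, KRT37 and KRT38, against 11.7%; it was added after the windows were read. In KRT37 it started at -69, on the gene's strand. The GC box GGGCGG, known for SP1 factors, was in 6 of 34 (17.6%), against 58.5%. The palindromic estrogen response element (GGTCA and TGACC with any 3 bases between) and the AP-1 motif TGANTCA were in 0 of 34, against 0.0379% and 5.75%. By the limit of 3 counts, 0 of 34 allows up to 8.82%. This is above the share over all windows for each motif with 0, so these counts do not set the keratin windows apart. A match is no binding site, and these windows say nothing of motifs elsewhere.

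The keratin peaks lay between genes more often than the peaks of the whole list, and more often within 10 kb of a TSS but not within 1 kb. These are descriptions, since the members share 2 clusters and no test was run. Of 26 keratin peaks 20 were intergenic (76.9%), against 51.9% of all peaks and 39.3% of all peaks within 50 kb of a TSS. Intronic were 3 (11.5%), against 41.6% and 48.3%. Within 10 kb of the named TSS lay 13 of 26 (50.0%), against 19.5% of all peaks, whereas within 1 kb it was 0, against 6.02%, and 0 were annotated as promoter, against 3.74%. Their median distance to the TSS was 10.3 kb, against 53.4 kb over all peaks, and none lay beyond 50 kb, where 51.5% of all peaks lay. Of all peaks within 50 kb of a TSS, 40.2% lay within 10 kb and 12.4% within 1 kb, with a median distance of 14.5 kb. The TSSs of a cluster are close to each other, so a peak inside it cannot be far from one. The median GC content of the keratin peaks was 0.487 and ran from 0.308 (KRT222) to 0.600 (KRT80), against a median of 0.405 for all peaks and 0.436 for all peaks within 50 kb of a TSS.

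The median score was 153 over the keratin peaks, 106 over all peaks and 120 over all peaks within 50 kb of a TSS. Among the highest 10% of the list were 5 of 26 keratin peaks (19.2%), against 11.8% of all peaks within 50 kb. These 5 were named for KRT37, KRT8 (2 peaks), KRT9 and KRT39. Annotated repeats held 8 of 26 peak centres (30.8%), against 34.7% of all peaks, 5 in LINE and 3 in SINE elements. The score of 2733 at KRT9 and the 3100 of KRT37 were both in MIRb elements, old SINEs. Mean conservation (0 to 1) had a median of 0.06 over keratin peaks and 0.07 over all peaks. It was highest, at 0.41, in the peak at KRT18 exon 7, and 0.04 or less in the 3 keratin peaks of highest score.

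The clusters of chromosomes 12 and 17 had nearly the same share of genes near a peak within 10 kb. Within 10 kb it was 5 of 27 on chromosome 12 (18.5%, exact 95% interval 6.30 to 38.1), against 13.2% of all protein-coding genes of that chromosome. On chromosome 17 it was 5 of 28 (17.9%, 6.06 to 36.9), against 9.92%. At any distance it was 8 of 27 and 8 of 28, against 34.2% of the genes of chromosome 12 and 19.0% of those of chromosome 17. At 1 kb it was 0 of 27 and 0 of 28, which allows up to 11.1% and 10.7%, against 4.88% and 2.91%. With the upper 50% of the peaks it was 2 of 27 genes of chromosome 12 (7.41%, 0.91 to 24.3) and 4 of 28 of chromosome 17 (14.3%, 4.03 to 32.7). Both intervals include the 7.24% over all protein-coding genes, and the difference between the clusters was not tested. By type, 6 of 29 type I genes had a peak within 10 kb (20.7%, exact 95% interval 7.99 to 39.7). For type II it was 4 of 26 (15.4%, 4.36 to 34.9). Both intervals include the 11.5% of all protein-coding genes. KRT18 is the type I gene on chromosome 12. The chromosome 12 cluster had 14 peaks with a median score of 212, against 113 for its chromosome. Of these, 7 were of the KRT8 and KRT18 pair, scored 65.2 to 3100, and the rest scored 54.4 (KRT85) to 549 (KRT80). The chromosome 17 cluster had 11 peaks with a median of 124, against 120. Chromosome 17 carries the ERBB2 amplification of this line, and extra copies can raise peak scores. Its median of 120 over 434 peaks stood beside 106 for the whole list. A median over a whole chromosome cannot show a gain of part of it. The part of copy number in the keratin scores and peak counts was not tested.

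By position rather than by name, an alternative chosen after the data were seen, 11 peaks lay in the 757 kb between the TSSs of KRT80 and KRT18, against a median of 4 in windows of that length along chromosome 12. The 907 kb between KRT222 and KRT9 held 12, against a median of 4 along chromosome 17. The window ends were set at keratins with a peak. KRT14, KRT16 and KRT17, which follow KRT9 in the RefSeq order and had no named peak, thus lay outside. Ends chosen in this way can raise the count. Both windows were above their chromosome's median, with the richest windows of that length holding 34 and 26. Of these 23 peaks 19 were named for keratins. The other 4 were named for the long non-coding gene LINC00592, between KRT80 and KRT7, and for KRTAP1-5 and KRTAP2-1. Of the 34 protein-coding KRTAP genes of chromosome 17, whose proteins cross-link the hair keratins, 2 had a peak within 10 kb (5.88%, 0.72 to 19.7), scored 232 and 111, an interval that includes the 9.92% of all genes of that chromosome.

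The peaks were unevenly spread within both clusters. A stretch of 333 kb on chromosome 12 had no peak of any name, from the KRT71 peak to that downstream of KRT8, and in the RefSeq order it holds 11 keratin genes. They are KRT74, KRT72 and KRT73 of the inner root sheath and KRT2, KRT1, KRT77, KRT76, KRT3, KRT4, KRT79 and KRT78 of stratified epithelium. On that chromosome 109 of 835 stretches between neighbouring peaks were at least as long, and the median was 65.9 kb. On chromosome 17, a stretch of 195 kb without a peak lay between KRT222 and KRT12, with 6 keratin genes, KRT24 to KRT28 and KRT10, and 116 of 433 stretches there were at least as long. A longer one of 293 kb lay between KRTAP2-1 and KRT33A. The genes that flank the clusters, SMIM41 and EIF4B on chromosome 12 and EIF1 on chromosome 17, had no peak. SMARCE1, which flanks KRT222, had 2, the stronger scoring 600 at 28772 bp.

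Genes that keratins are known to work with had peaks in the same range. Of 25 genes of desmosomes and hemidesmosomes, which anchor the filaments, 5 had a peak within 10 kb (20.0%, exact 95% interval 6.83 to 40.7). The share over all protein-coding genes was 11.5%. Within 1 kb of the named TSS it was 0, which allows up to 12%, against 4.16% of all protein-coding genes. Desmoplakin (DSP), which ties keratins to the desmosome, had 1328 in intron 1 of 23, followed by the plakin PPL with 263, the plakophilin PKP2 with 133 and the laminin LAMA3 with 95. Of 16 other intermediate filament genes 5 had a peak within 10 kb (31.2%, 11 to 58.7). LMNA, of the nuclear lamina, had 1259 in intron 1 of 10, BFSP1, of the lens, 262, SYNC 167 and LMNB2, also of the lamina, 124. Of 22 interactors and regulators 5 had a peak within 10 kb (22.7%, 7.82 to 45.4). Strongest were the epithelial transcription factor genes ELF3 with 322, GRHL1 with 164 and KLF4 with 159. SFN, of a 14-3-3 protein, followed with 157. In both of these lists 0 genes had a peak within 1 kb, which allows up to 18.8% for the filament genes and 13.6% for the interactors and regulators. All these limits lie above the share over all genes, so the counts of 0 do not set the lists apart. The intervals at 10 kb all include the 11.5% of all genes, so those counts do not set them apart either.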

How the data were processed

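The series measured ERRγ binding by ChIP-seq in 2 ERRγ libraries and 1 input library. The submitters' processing notes name HOMER 3.18, MACS 1.4.1, BWA 0.5.9 and the build hg19. What each tool did, the calling threshold and any pooling of libraries: not given in the sources used here. Per the file headers, the authors' table gave each peak a score, its distance to the nearest TSS and an annotation. The deposited GC content is a fraction, and the mean conservation is a score, both between 0 and 1.

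Peaks were joined by gene identifier to a RefSeq gene table of GRCh38.p14, used for symbols, biotypes and gene order only. It matched 15153 of 15223 peaks. TSS positions on hg19 were taken from the peak centre and distance. For KRT8 the start was also placed by its spacing from KRT71 in the RefSeq promoter table. The strand came from the RefSeq promoter table, from several peaks of 1 gene, or, for KRT80, KRT7, KRT6B and KRT222, from general knowledge. Shares, exact intervals and figures were computed with Python 3.11.15, pandas 2.3.3, scipy 1.17.1 and matplotlib 3.10.9. The counting was tested on simulated data. No set test was run.

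The members, classes and lists were chosen with earlier results of these data known. Genes were named by rule: all keratins with a peak, all simple and basal ones, up to 4 strongest per partner list and the flanking genes; further genes are named as members of counts or stretches. Alternatives were other distances (1 kb, 50 kb, any), only peaks in the upper 50% or 10% by score, other class and member choices, and merging within 500 bp.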

Additional observations from a re-analysis of the deposited data

How the results depend on the processing

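The counts depended on the distance and on the score. Beside the 10 keratin genes with a peak within 10 kb, the count was 0 at 1 kb, 16 at 50 kb and 16 at any distance, and with stricter scores it was 6 (upper 50%) and 3 (upper 10%). The chromosome 12 cluster, 5 as reported, had 0, 8 and 8 at these distances and 2 and 1 at these scores. That of chromosome 17, also 5, had 0, 8 and 8, 4 with the upper 50% and 2 with the upper 10%. By class, at 1 kb the count was 0 for simple, activated, inner root sheath, hair and remaining keratins. At 50 kb and at any distance the suprabasal keratins had 2, beside 0, and the remaining keratins 2, beside 1. With the upper 50% the activated and inner root sheath keratins had 0, and with the upper 10% these 2 classes and the remaining keratins had 0, the simple keratins 1 and the hair keratins 2. The 26 peaks became 15 in the upper 50% and 5 in the upper 10%. Each of the 3 partner lists had 0 at 1 kb and 8 at 50 kb, beside 5. With the RefSeq start of KRT8, added after the data were seen, 1 keratin had a peak within 1 kb, beside 0. The settings of distance and score use fewer or more peaks by construction.

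The other 29 results under an alternative stayed within 1.5 times the reported count, among them 22 peaks after merging within 500 bp, 9 keratins without KRT222 and 23 peaks by position, the last 2 added after the data were seen. The basal keratins were at 0 under all 6 alternatives tried, but with 0 at any distance the others could give nothing else. No paired analysis was possible because the deposited table gives no value per library. Without depth per library or a value per replicate, how many keratin peaks rest on 1 library is unknown.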
